A study of Mus musculus with 6 samples.

Results

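Ephrins, Slits and netrins are the ligands, and Eph, Robo, DCC/neogenin and UNC5 proteins the receptors, of 3 classical axon guidance systems. All rows of the deposited mouse expression table whose gene name belongs to these families were taken by name alone, which gave 38 of the 53379 genes in the table: 9 EphA and 5 EphB receptors, 5 ephrin-A and 3 ephrin-B ligands, 4 Robo receptors, 3 Slit ligands, 3 netrin ligands and 6 netrin receptors. The cells were neural stem cells (NSCs), dividing cells that can form neurons and glia, grown as neurospheres with bFGF and EGF from embryonic cortex at E14.5. All 6 samples were homozygous for a floxed *Tbl1xr1* allele (*Tbl1xr1* flox/flox). The control group of 3 libraries (GFP1, GFP1_1 and GFP2) came from NSCs given a lentivirus with GFP alone, and the other 3 (CRE2, CRE2_2 and CRE3) from NSCs given Cre, the recombinase that removes the floxed exon. Recombination was thus made in culture by a virus, and the sources used here do not say whether like-numbered libraries came from separate embryos or cultures. The p-values below therefore measure the spread between these libraries, which may be technical.

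Eph receptors are receptor tyrosine kinases of the cell surface, and their ephrin ligands are bound to the membrane of the neighbouring cell, by a lipid anchor in the A class and by a transmembrane segment in the B class. Signals run both ways, forward into the cell with the receptor and in reverse into the cell with the ephrin, and usually end in repulsion or sorting of cells. Slits and netrins are secreted. Slits repel through Robo receptors, whereas netrin attracts through DCC and neogenin and repels when UNC5 receptors take part. In the embryonic brain these systems steer axons and migrating neurons, and Eph receptors and ephrins are also present on neural progenitors.

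Reads on genes ran from 7510615 to 14828100 per library and were fewer in control (median 7762821) than in the Cre-labelled libraries (median 12210170). All values below are normalized counts, that is reads divided by 1 size factor per library, unless another scale is named. *Tbl1xr1* itself stood at 2522, 2190 and 2721 in GFP1, GFP1_1 and GFP2 and at 3774, 3463 and 2905 in CRE2, CRE2_2 and CRE3. The mRNA of the targeted gene was therefore not lower in the Cre-labelled libraries (log2 fold change 0.45 ± 0.14 SE, adjusted p = 0.060 by limma), and since the table gives 1 value per gene, the floxed exon alone cannot be read from it. For this reason these libraries are named by their label alone. The study states that it checked its sorted NSCs for genotype and for loss of the mRNA and protein, measurements that were not analysed here. Of the markers of the labelled tissue, the progenitor gene *Nes* stood at 6229 ± 912 in control and 3435 ± 357 in the Cre-labelled libraries (SD, n = 3 each). Among 10 neural stem cell markers, 6 were higher and 4, *Nes* included, lower in the Cre-labelled libraries. The cortical markers *Emx1* and *Tbr1* were close to 0 in both groups, at means of 0.306 and 0.445 in control and of 0 and 0.529 in the Cre-labelled libraries.

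Of the 38 genes, 21 had a mean of at least 10 over the 6 libraries and were tested with limma on log2(normalized count + 1), with Benjamini-Hochberg adjustment over all 14840 genes tested. Compared with control, 1 gene rose in the Cre-labelled libraries, the Eph receptor *Epha4*, and 3 fell, the netrin receptor *Unc5b*, the Eph receptor *Ephb2* and the ephrin *Efnb1*. Over all genes tested, 4.74% rose and 5.22% fell at the same threshold, an adjusted p under 0.05. The tested guidance genes lay on both sides of 0, with 10 higher and 11 lower and a median log2 fold change of -0.01, against -0.0010 over all genes tested. The median size of their log2 fold changes, whatever the sign, was 0.43, against 0.26 over all genes tested. At an unadjusted p under 0.05 there were 3 higher and 5 lower genes of the 21, against 25.5% of all genes tested. The libraries of the 2 groups did not overlap for 2 higher genes, *Epha4* and *Robo2*, and for 6 lower genes, *Ephb2*, *Efna1*, *Efna2*, *Efnb1*, *Ntn4* and *Unc5b*. Over all genes tested, 14.7% did not overlap with the Cre-labelled libraries higher and 15.5% with them lower.

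**Figure D1:**
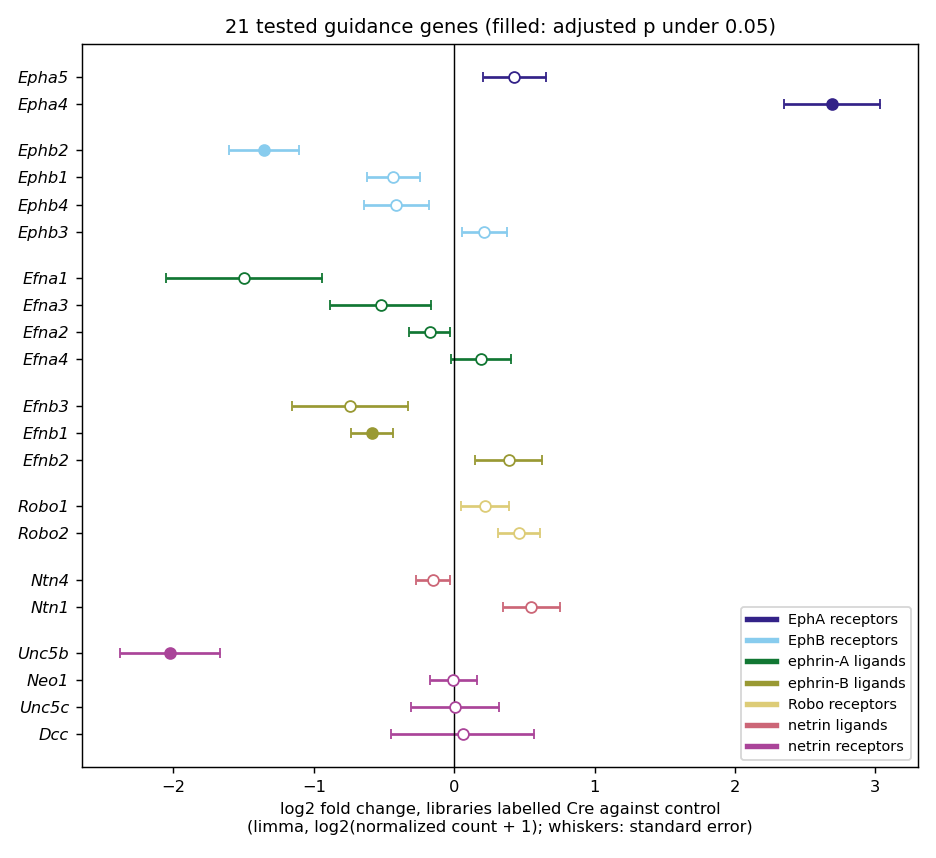
Log2 fold change of the Cre-labelled libraries against control (x axis, log2(normalized count + 1) scale, limma) for the 21 tested guidance genes, coloured by family, with standard errors as whiskers and filled points for an adjusted p under 0.05. *Epha4* stands at 2.69 and *Unc5b*, *Ephb2* and *Efnb1* at -2.02, -1.35 and -0.58, while the other 17 points are open.

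The promoters of *Epha4*, *Unc5b* and *Efnb1* are shown because these genes carried changes in both directions. Each is the window of 250 bases before the start site that the RefSeq promoter table gives, assembly GRCm38.p6, printed 5′ to 3′ on the strand of the gene, with every match to the letters GGGCGG (the GC box bound by Sp1-type factors) or its reverse complement in capitals.

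Epha4, chr1:77515089-77515338, minus strand: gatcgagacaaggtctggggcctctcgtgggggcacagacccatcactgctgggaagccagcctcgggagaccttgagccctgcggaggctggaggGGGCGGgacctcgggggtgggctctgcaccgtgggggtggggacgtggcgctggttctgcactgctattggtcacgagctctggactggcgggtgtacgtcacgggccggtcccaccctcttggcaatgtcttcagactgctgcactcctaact
Unc5b, chr10:60831582-60831831, minus strand: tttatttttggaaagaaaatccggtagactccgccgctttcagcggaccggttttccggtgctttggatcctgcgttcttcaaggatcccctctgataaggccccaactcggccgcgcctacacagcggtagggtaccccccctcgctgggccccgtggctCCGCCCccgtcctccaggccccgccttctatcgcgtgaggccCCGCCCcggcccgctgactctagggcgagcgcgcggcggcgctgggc
Efnb1, chrX:99135811-99136060, plus strand: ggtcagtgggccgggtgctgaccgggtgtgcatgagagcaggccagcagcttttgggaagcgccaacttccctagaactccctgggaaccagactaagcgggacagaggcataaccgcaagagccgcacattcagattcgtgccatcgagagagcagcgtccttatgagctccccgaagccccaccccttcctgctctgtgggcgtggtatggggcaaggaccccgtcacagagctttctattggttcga

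*Epha4* held 1 GC box and *Unc5b* 2, while the window of *Efnb1* held none. The *Epha4* window overlaps the outer bounds of its gene by 19 bases. The *Ephb2* window of that table lies inside the bounds of its gene, before a start site that is not the outermost. It is not shown, although *Ephb2* is among the 33 guidance genes counted below. GC boxes were found in 33.0% of the 32536 distinct windows of the same length in that RefSeq table, and in 23 of the 33 guidance genes with a window there. For every motif a guidance gene counted when any of its windows matched, with 38 windows for the 33 genes. Counts of genes and shares of windows are therefore in unlike units. None of the 3 windows held, on either strand, the E2F-type letters TTTCGCGC, TTTGGCGC or TTTCCCGC (in 0.258%, 0.421% and 0.901% of all windows), the nuclear receptor motif AGGTCA (14.0%), the TCF/LEF letters CTTTGAT (3.21%), the E-box CACGTG (6.04%) or the RBPJ letters GTGGGAA (5.43%). The nuclear receptor motif was present in windows of 4 of the 33 guidance genes and the E-box in 2. All 3 windows were rich in G and C, at 66.0% for *Epha4*, 66.8% for *Unc5b* and 60.0% for *Efnb1*, with a median of 52.4% over all windows. They held 14, 27 and 13 CpG dinucleotides in that order, against a median of 6.

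Among the EphA receptors, 2 of 9 genes were tested and both were higher in the Cre-labelled libraries. *Epha4* (ENSMUSG00000026235, chromosome 1:77367182-77515107 of GRCm38), a receptor unusual in its class for binding ephrins of both classes, had 23.9 in GFP1, 10.2 in GFP1_1 and 16.0 in GFP2. It had 89.3 in CRE2, 149 in CRE2_2 and 94.0 in CRE3. The groups did not overlap, and the lowest Cre-labelled library stood well clear of the highest control. The log2 fold change was 2.69 ± 0.34 (SE; limma, adjusted p = 0.00091), with means of 16.7 ± 6.84 and 111 ± 33.1 (SD, n = 3 each), and the gene passed in all 17 alternative analyses. These values rest on few reads in control, 26, 7 and 12 in GFP1, GFP1_1 and GFP2, against 129, 173 and 105 in CRE2, CRE2_2 and CRE3. *Epha5*, a receptor for A-class ephrins, was the most abundant EphA gene, with 627, 474 and 607 in the control libraries and 510, 1015 and 849 in CRE2, CRE2_2 and CRE3. CRE2 lay among the controls, while the other two libraries lay above them (log2 fold change 0.43 ± 0.22 SE, adjusted p = 0.26 by limma). Without CRE2 the log2 fold change was 0.72 with an adjusted p of 0.0068 by limma, so that this library decided the call.

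The other 7 EphA genes were close to the limit of detection. *Epha6* and *Epha8* had 0 reads in every library, which for counting error alone allows up to 3 reads per library. *Epha1* had 2 to 8 reads in control and 1 to 10 in the Cre-labelled libraries, *Epha10* 3 to 5 and 3 to 4, *Epha2* 2 to 4 and 0 to 4, and *Epha3* 0 to 3 and 2 to 9. *Epha7* had no read in control and 1 to 3 reads in each Cre-labelled library. A difference in these genes was not detectable at this depth.

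Of the 5 EphB receptors, 4 were tested. *Ephb2* (ENSMUSG00000028664, chromosome 4:136647536-136836326), a receptor mainly for B-class ephrins, had 68.8, 73.1 and 82.7 in GFP1, GFP1_1 and GFP2 and 30.5, 31.9 and 24.2 in CRE2, CRE2_2 and CRE3. The libraries of each group lay close together and the groups were far apart. The log2 fold change was -1.35 ± 0.25 (SE; limma, adjusted p = 0.0069), and the gene passed in all 17 alternative analyses. *Ephb3*, the EphB receptor with the highest level, had 3584, 2801 and 4005 in control and 3268, 4422 and 4359 in the Cre-labelled libraries. Its groups overlapped, with a log2 fold change of 0.22 ± 0.16 (SE; adjusted p = 0.45, limma). *Ephb1* gave -0.43 ± 0.19 (SE; adjusted p = 0.18) and *Ephb4*, best known from the vasculature, -0.41 ± 0.23 (SE; adjusted p = 0.29), both with overlapping groups. *Ephb6*, whose kinase domain is inactive, had 1 to 2 reads in control and 0 in each Cre-labelled library.

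Counted per kb of exon, so that genes can be compared, the groups did not overlap in the shares of *Epha5* and *Epha4* in the EphA family. Shares are given as a description, since 3 libraries against 3 cannot reach a p below 0.1 in an exact permutation test. *Epha5* made up 90.6% ± 0.668 of the summed EphA level in control and 79.2% ± 4.40 in the Cre-labelled libraries (SD, n = 3 each). The share of *Epha4* was 4.12% ± 1.19 and 18.0% ± 3.09 in the same order. The EphA sum was 69.4, 52.2 and 66.2 per kb in GFP1, GFP1_1 and GFP2 and 67.5, 129 and 101 per kb in CRE2, CRE2_2 and CRE3. CRE2 was thus at the control level in its summed EphA, but its *Epha4* share of 20.9% was the highest of the 6 libraries. The EphB family was nearly all *Ephb3*, with 87.3% ± 2.96 in control and 91.9% ± 1.00 in the Cre-labelled libraries, followed by *Ephb1* with 7.98% ± 1.96 and 5.26% ± 0.567. *Ephb2*, the member that changed, was a minor part of it, at 0.954% ± 0.125 and 0.338% ± 0.0882.

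In a per-kb order of the Eph receptors of control cells, *Ephb3* stood first at 551, ahead of *Epha5* at 56.7 and *Ephb1* at 49.1, whose ranges over libraries overlapped, then *Ephb4* at 22.6, *Ephb2* at 5.94 and *Epha4* at 2.64. In the Cre-labelled libraries *Epha4* stood at 17.5 per kb, next to *Ephb4* at 17.2, and *Ephb2* at 2.29.

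**Figure D2:**
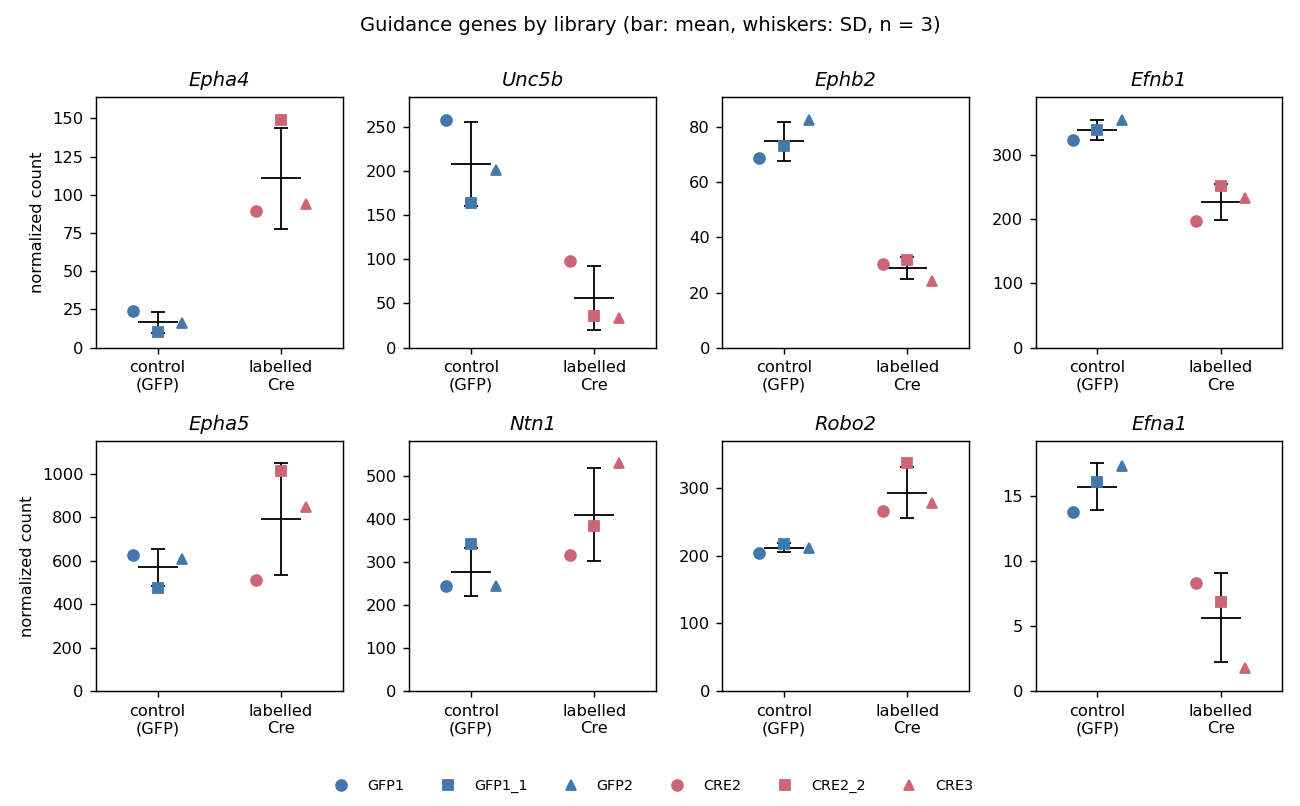
Normalized count (y axis, each from 0) of 8 guidance genes in the 3 control libraries (blue) and the 3 Cre-labelled libraries (red), with the mean as a bar and the SD as whiskers. *Epha4*, *Unc5b*, *Ephb2* and *Efnb1* passed an adjusted p of 0.05. Of the Cre-labelled libraries, CRE2 lies nearest to control for *Epha4*, *Epha5*, *Ntn1*, *Robo2*, *Efna1* and *Unc5b*, and CRE2_2 for *Ephb2* and *Efnb1*.

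Among the ephrin-A ligands, 4 of 5 genes were tested and none passed the threshold by limma, 1 of them, *Efna1*, having an unadjusted p under 0.05 and none passing with edgeR or DESeq2. *Efna1* had 13.8, 16.1 and 17.3 in GFP1, GFP1_1 and GFP2 and 8.31, 6.89 and 1.79 in CRE2, CRE2_2 and CRE3. The groups did not overlap, but CRE3 rested on 2 reads, and the log2 fold change of -1.50 ± 0.55 (SE) had an adjusted p of 0.11 by limma. *Efna2*, the ephrin-A gene with the highest level, had 268, 274 and 299 in control and 257, 222 and 267 in the Cre-labelled libraries. These groups were apart by little (log2 fold change -0.17 ± 0.15 SE, adjusted p = 0.50). *Efna3* gave -0.52 ± 0.36 (SE; adjusted p = 0.40) and *Efna4* 0.19 ± 0.21 (SE; adjusted p = 0.62), and *Efna5* had at most 2 reads in any library. *Efna1*, *Efna3* and *Efna4* are neighbours within 66.3 kb of chromosome 3 (89271730 to 89338028 of GRCm38), and their log2 fold changes of -1.50, -0.52 and 0.19 were unlike each other. Per kb, *Efna2* held 67.4% ± 2.37 of the ephrin-A sum in control and 65.7% ± 3.36 in the Cre-labelled libraries, and *Efna4* held 21.9% ± 1.22 and 27.8% ± 4.03 (SD, n = 3 each).

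All 3 ephrin-B ligands were tested. *Efnb1* (ENSMUSG00000031217, chromosome X:99136061-99149022), a transmembrane ligand of EphB receptors, had 324, 339 and 355 in GFP1, GFP1_1 and GFP2 and 197, 251 and 233 in CRE2, CRE2_2 and CRE3. The groups did not overlap, and the log2 fold change was -0.58 ± 0.15 (SE; limma, adjusted p = 0.031). This call was lost when any 1 control library or CRE2_2 was left out, with adjusted p of 0.11 without GFP1, 0.096 without GFP1_1, 0.12 without GFP2 and 0.054 without CRE2_2, and at 0.093 with GFP1 and GFP1_1 averaged. The fold change stayed negative in each. As *Efnb1* is X-linked, the state of the X chromosome was read as well. *Xist*, the RNA that coats the silenced X chromosome, was at 62.4 ± 5.82 in control and 4.50 ± 1.66 in the Cre-labelled libraries (SD, n = 3 each; named after its values were seen), and Y-linked *Ddx3y* was at 916 ± 18.6 and 977 ± 54.2. Of the other Y-linked genes read, *Eif2s3y* rose from 278 ± 36.0 to 424 ± 41.1 (adjusted p = 0.028 by limma), while *Uty* was at 221 ± 38.3 and 301 ± 19.0 (adjusted p = 0.10) and *Kdm5d* at 302 ± 50.3 and 322 ± 28.8 (adjusted p = 0.74). The 496 tested genes of the X chromosome had a median log2 fold change of -0.02, with 22 that fell and 19 that rose. Of all genes tested, 5.22% fell and 4.74% rose. The part of *Xist* and of the Y-linked genes in the *Efnb1* result was not tested.

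*Efnb2* had 80.8, 118 and 82.7 in control and 91.4, 141 and 139 in the Cre-labelled libraries, with a log2 fold change of 0.39 ± 0.24 (SE; adjusted p = 0.34, limma). *Efnb3* gave -0.74 ± 0.41 (SE; adjusted p = 0.29), with 24.2 in CRE2 inside the control range and 11.2 and 10.7 in CRE2_2 and CRE3 below it. Per kb, the ephrin-B sum was 126 ± 4.82 in control and 96.4 ± 11.4 in the Cre-labelled libraries. *Efnb1* held 78.1% ± 3.01 of it in control and 68.2% ± 0.623 in the Cre-labelled libraries, and *Efnb2* 15.5% ± 2.98 and 26.6% ± 3.31. The lowest *Efnb2* share of a Cre-labelled library was 22.8%, in CRE2, above the highest control share of 19.0%, in GFP1_1.

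**Figure D3:**
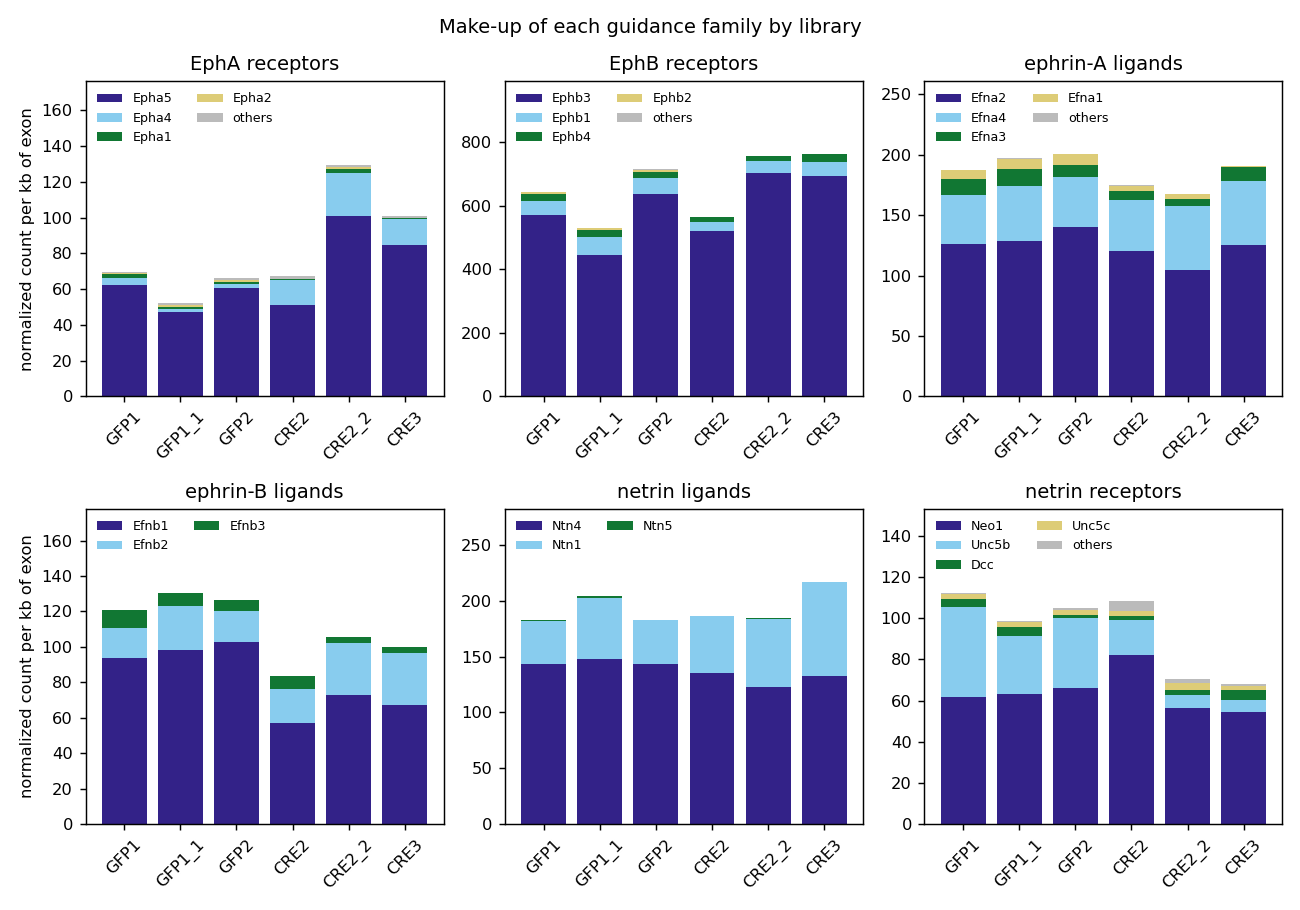
Summed level of each of 6 guidance families in each library (y axis, normalized count per kb of exon), split by gene, with the 4 most abundant genes of a family in colour and the others in grey. *Epha4* and *Efnb2* take a larger part in the Cre-labelled libraries and *Unc5b* a smaller one, while *Ephb3* and *Efna2* dominate their families in every library.

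Of the 6 netrin receptors, 4 were tested and 1 passed the threshold. *Unc5b* (ENSMUSG00000020099, chromosome 10:60762594-60831581), a receptor through which netrin repels and which is also known from endothelial cells, had 258, 164 and 201 in GFP1, GFP1_1 and GFP2 and 97.6, 36.2 and 34.0 in CRE2, CRE2_2 and CRE3. All Cre-labelled libraries lay below all controls, and CRE2 lay between the other two and the controls. The log2 fold change was -2.02 ± 0.36 (SE; limma, adjusted p = 0.0054), and the gene passed in all 17 alternative analyses. Endothelial markers were low throughout. The 6 of them summed to 30.7 to 41.3 in control and 14.3 to 20.1 in the Cre-labelled libraries, with *Cdh5* and *Cldn5* at 0 reads in all 6 libraries, and *Kdr*, the one tested, fell short of the threshold at -1.34 on the log2 scale (adjusted p = 0.068).

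The attractive receptors of netrin gave other values. *Neo1*, the gene of neogenin, was the most abundant netrin receptor, with 454, 467 and 487 in control and 608, 416 and 404 in CRE2, CRE2_2 and CRE3, so that CRE2 was above and the other two below every control. Its log2 fold change was -0.0050 ± 0.17 (SE; adjusted p = 0.99, limma). *Dcc* had 30.3, 35.1 and 9.34 in control and 15.2, 20.7 and 36.7 in the Cre-labelled libraries, with a wide spread in both groups, which overlapped over most of their range (0.06 ± 0.51 SE; adjusted p = 0.96). *Unc5c* gave 0.0047 ± 0.31 (SE; adjusted p = 0.99). The sign of these last 3 changed between analyses, and no direction is read from them. *Unc5a* had 1 to 3 reads in control and 2 to 20 in the Cre-labelled libraries, and *Unc5d* had 1 to 2 and 4 to 19, the highest in CRE2 for both. In the fit without a filter on low values neither passed, with adjusted p of 0.45 and 0.24 by limma. Per kb, *Unc5b* held 33.5% ± 5.50 of the summed netrin receptors in control and 10.9% ± 3.88 in the Cre-labelled libraries, and *Neo1* 60.5% ± 4.98 and 78.9% ± 2.52 (SD, n = 3 each).

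Of the ligands, *Ntn1* had 244, 342 and 245 in GFP1, GFP1_1 and GFP2 and 318, 384 and 530 in CRE2, CRE2_2 and CRE3. The groups overlapped through GFP1_1 and CRE2, and the log2 fold change of 0.55 ± 0.20 (SE) had an adjusted p of 0.12 by limma. Without CRE2 it was 0.72 with an adjusted p of 0.022. *Ntn4*, a netrin that acts mainly on basement membranes, had 535, 553 and 537 in control and 507, 460 and 497 in the Cre-labelled libraries, groups that were apart by a small step (-0.15 ± 0.12 SE; adjusted p = 0.47). *Ntn4* was the higher of the pair per kb, at 145 against 44.2 in control and 130 against 65.4 in the Cre-labelled libraries. *Ntn5* had 0 to 2 reads.

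Of the Slit and Robo genes, only *Robo1* and *Robo2* were tested. *Robo2* had 205, 218 and 212 in GFP1, GFP1_1 and GFP2 and 266, 337 and 278 in CRE2, CRE2_2 and CRE3. Each Cre-labelled library was above each control, but the log2 fold change of 0.46 ± 0.15 (SE) had an adjusted p of 0.078 by limma. Without CRE2 it was 0.53 with an adjusted p of 0.042. *Robo1*, which lies near *Robo2* on chromosome 16, gave 0.22 ± 0.17 (SE; adjusted p = 0.46), with 243, 259 and 183 in control and 250, 291 and 251 in the Cre-labelled libraries. Per kb, *Robo1* held 64.0% ± 4.29 and *Robo2* 34.8% ± 4.27 of the Robo sum in control, and 60.8% ± 1.08 and 38.9% ± 0.958 in the Cre-labelled libraries. *Robo3* had 0 to 5 reads and *Robo4*, an endothelial Robo next to *Robo3* on chromosome 9, had 0 in every library.

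The Slit ligands all fell under the filter. *Slit1* had 9.18, 8.78 and 2.67 in control and 13.9, 11.2 and 13.4 in the Cre-labelled libraries, and *Slit2* had 0.918, 7.31 and 6.67 in control and 8.31, 14.6 and 9.85 in the Cre-labelled libraries. For both genes each Cre-labelled library was above each control, at 2 to 10 and 1 to 5 reads in control and 13 to 20 and 11 to 17 reads in the Cre-labelled libraries. In the fit without a filter the adjusted p was 0.47 for *Slit1* and 0.39 for *Slit2* by limma, so the difference did not pass the test at this depth. *Slit3* had 0 reads in control and at most 2 in a Cre-labelled library. Slit ligands were thus at 1.49 ± 0.547 normalized counts per kb in sum in control and 2.97 ± 0.135 in the Cre-labelled libraries, against 37.2 ± 4.55 and 45.5 ± 4.75 for the Robo receptors (SD, n = 3 each).

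The library CRE2 was the closest to control of the 3 Cre-labelled libraries for 13 of the 21 tested guidance genes (61.9%), and for 38.0% of all genes tested. Leaving it out gave 7 guidance genes past the threshold in place of 4, with *Epha5*, *Ntn1* and *Robo2* added on the higher side. The same step took the count over all genes tested from 1478 to 2396.

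The other genes of these pathways were taken from a list written by role, 68 genes of which 64 were tested. Of these, 5 rose and 3 fell, with 36 higher and 28 lower in all and a median log2 fold change of 0.10. Over all genes tested 4.74% rose and 5.22% fell, so that the partners are given by name and not as a group that stands apart. Both called genes among the 8 tested other ligands rose. *Draxin*, a secreted repellent that binds netrin receptors, had 351, 414 and 363 in GFP1, GFP1_1 and GFP2 and 687, 920 and 894 in CRE2, CRE2_2 and CRE3, groups far apart (log2 fold change 1.14 ± 0.15 SE, adjusted p = 0.0010 by limma). *Flrt2*, a membrane ligand of UNC5 receptors, had 67.0, 73.1 and 98.7 in control and 150, 173 and 110 in the Cre-labelled libraries (0.85 ± 0.23 SE, adjusted p = 0.042).

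Of the 10 co-receptors and sheddases, 9 were higher and 2 of them passed, the genes of the netrin-G ligands. *Lrrc4c*, whose protein binds netrin-G1, had 72.5, 80.5 and 74.7 in control and 252, 319 and 239 in the Cre-labelled libraries. *Lrrc4*, whose protein binds netrin-G2, had 75.3, 79.0 and 93.4 in control and 154, 189 and 162 in the Cre-labelled libraries. For both the groups were far apart, with log2 fold changes of 1.81 ± 0.18 (SE; adjusted p = 0.00018) and 1.02 ± 0.19 (SE; adjusted p = 0.0064) by limma.

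Of the 46 tested intracellular effectors, 1 rose and 3 fell, with 23 higher and 23 lower. *Enah*, an actin regulator of the Ena/VASP family, rose with a log2 fold change of 0.43 ± 0.12 (SE; adjusted p = 0.045, limma). *Pak1*, a kinase activated by Rac and Cdc42, had 618, 502 and 600 in control and 254, 251 and 264 in the Cre-labelled libraries, with hardly any spread in the latter (-1.15 ± 0.14 SE, adjusted p = 0.00062). *Rgs3*, whose protein can bind the tail of B-class ephrins, fell by 0.89 ± 0.21 (SE; adjusted p = 0.023) and *Chn2*, a Rac inactivator of the chimaerin family, fell by 0.53 ± 0.15 (SE; adjusted p = 0.043) on the log2 scale. *Draxin*, *Lrrc4*, *Lrrc4c* and *Pak1* passed in all 17 alternative analyses. The other four lost the call when 1 library was left out, with adjusted p by limma of up to 0.17 for *Flrt2* (without GFP1), 0.18 for *Enah* (without GFP1), 0.16 for *Chn2* (without GFP1_1) and 0.12 for *Rgs3* (without GFP2). The count of 8 was 4 without GFP1, GFP2 or CRE2_2, 5 without GFP1_1 and 12 without CRE2. Over all genes tested, 1478 passed in the main fit, 558 without GFP1, 643 without GFP2 and 724 without CRE2_2. That all-gene count was 704 without GFP1_1 and 2396 without CRE2.

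**Figure D4:**
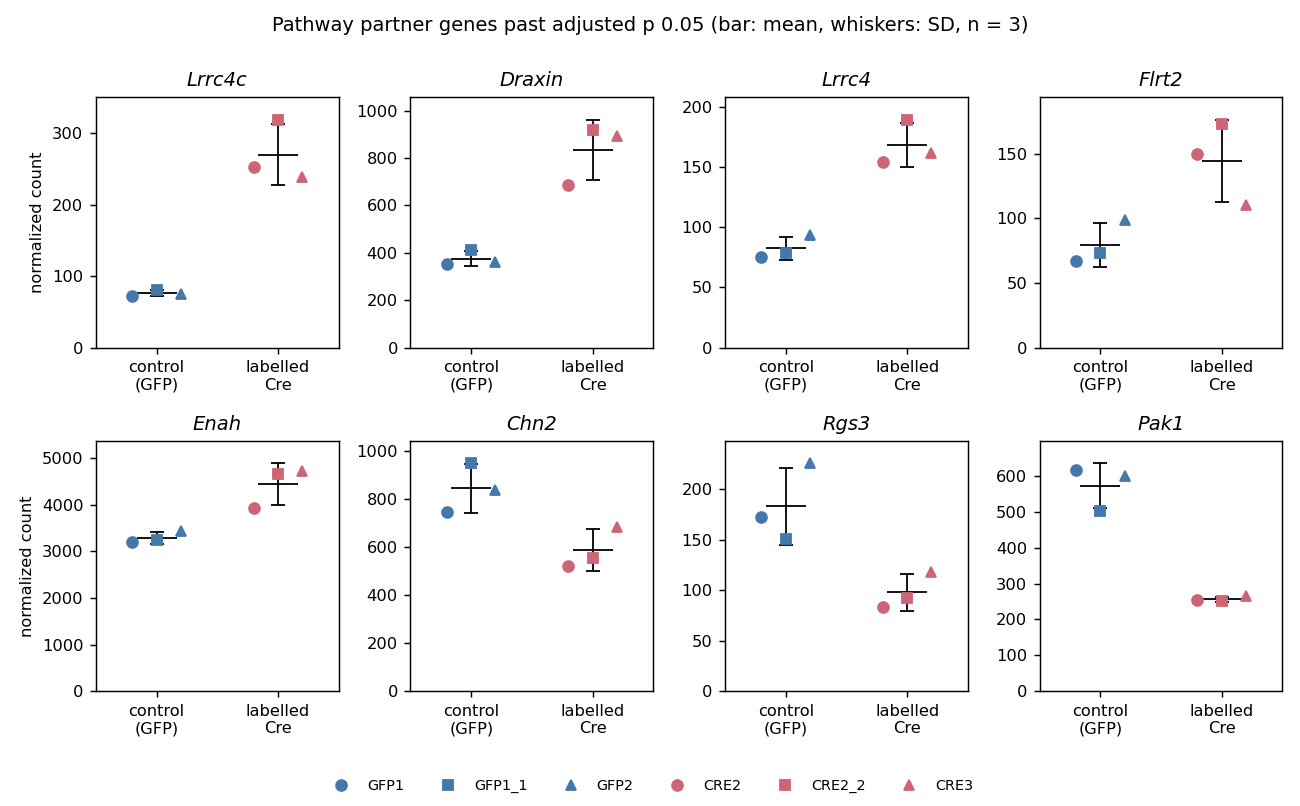
Normalized count (y axis, each from 0) of the 8 pathway partner genes past an adjusted p of 0.05 in the 3 control libraries (blue) and the 3 Cre-labelled libraries (red), with the mean as a bar and the SD as whiskers. *Lrrc4c*, *Draxin*, *Lrrc4*, *Flrt2* and *Enah* are higher and *Chn2*, *Rgs3* and *Pak1* lower in the Cre-labelled libraries.

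Markers of cell types and brain regions also moved between the groups. Astrocyte markers rose for 5 of 9 tested genes, among them *S100b* with 238 ± 14.7 and 2064 ± 407 (SD, n = 3 each). The shares over all genes tested were 4.74% that rose and 5.22% that fell. The list of 10 summed to 14487 to 15776 in control and 22671 to 26518 in the Cre-labelled libraries. Its largest members were *Slc1a3*, at means of 6060 and 7408, and *Sox9*, at 4272 and 8657. *Gfap* was under the filter, at means of 1.82 and 4.73. *Aldh1l1*, of the same list, went the other way without passing the threshold, at 17.3 ± 2.34 and 5.35 ± 3.30 (log2 fold change -1.65, adjusted p = 0.065 by limma). Oligodendrocyte lineage markers rose for 3 of 6, with sums of 12488 to 14404 and 17236 to 19639. The 12 neuronal markers summed to 9412 to 9641 and 10226 to 11503, mostly through *Map2*, and *Stmn2* had 0 reads in every library. Of the 7 neuronal markers tested, 3 were higher and 4 lower, with none past the threshold and a median log2 fold change of -0.14. Among 10 tested neural stem cell markers 1 fell, *Nes*, with a log2 fold change of -0.85. Counting those short of the threshold too, 6 of the 10 were higher and 4 lower. The regional genes *En2* and *Dlx1* fell, with log2 fold changes of -8.08 and -5.60, *En2* from 322 ± 24.6 to 0.231 ± 0.400 and *Dlx1* from 255 ± 43.7 to 7.32 ± 6.38. The 6 microglial markers summed to 164 to 206 and 167 to 274 in the same order, and the 7 mural and fibroblast markers to at most 22.4 in any library. The microglial sum was nearly all *Csf1r*, at means of 183 in control and 222 in the Cre-labelled libraries, and *Tmem119* had 0 reads throughout. In bulk RNA fewer cells with a gene and less of it per cell cannot be told apart, and the part of these cell type and regional differences in the guidance gene results was not tested.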

How the data were processed

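RNA of sorted, virus-infected NSCs was extracted with Trizol and prepared with the TruSeq RNA Library Prep Kit v2. The paper names TopHat with mm9 and mm10 for alignment, whereas the submitters' processing notes name STAR 2.7 and mm10. The read counter, strand setting and annotation are not given in the sources used here. The values the authors deposited are DESeq2 normalized counts per gene and library, a signal obtained by dividing reads by a size factor. The deposited columns of the authors' own comparison (fold changes and p-values) were not used. Reads were recovered from these values, of which 100% were whole multiples of 1 read within 0.0001. Of 53379 genes, 873 had no name and 1 lacked a value in 1 library. All per-sample columns were used.

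Groups were taken from the sample titles. No pair of libraries of a group agreed within sampling noise (chi-square per degree of freedom 6.38 to 40.0), and all 6 were kept. Normalized counts were tested with limma 3.58.1 in R 4.3.3 (lmFit, eBayes with a trend) on log2(value + 1) for genes with a mean of at least 10, two-sided, at an adjusted p of 0.05. This scale understates changes of low genes. An exact permutation test of 3 against 3 libraries cannot go below a p of 0.1. Alternatives were edgeR 4.0.16 (quasi-likelihood, TMM) and DESeq2 1.42.0 on recovered reads, other pseudocounts, filters, scalings and thresholds, averaging like-numbered libraries and leaving out each library. The scripts were tested on simulated data. Levels per kb used the union of exons of GENCODE M1 on mm9, and coordinates and promoters came from RefSeq GRCm38.p6, matched by symbol (33 of 38 promoters), read with Python 3.11.15 and drawn with matplotlib 3.10.9. Motifs were searched on both strands.

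The families and lists were chosen with earlier results of these data known. Every gene of the families is accounted for. Tested genes are named with their fold change, those past the threshold in every library, and genes under the filter with their reads. Of the pathway partners those past the threshold are named, with *Tbl1xr1* as the targeted gene. Other genes were named after their values were seen.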

Additional observations from a re-analysis of the deposited data

How the results depend on the processing

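*Epha4*, *Ephb2* and *Unc5b* passed the threshold with the same direction in all 17 alternatives. *Efnb1* kept its direction in all and passed in 12. Of the 17, 1 was the main fit read at an adjusted p under 0.1, which any gene past 0.05 passes. The count of 4 guidance genes was 3 to 7 when 1 library was left out, the 7 being without CRE2, and the 8 pathway partners were 4 with GFP1 and GFP1_1 averaged and 4 to 12 with 1 library left out. Over all genes, 1478 passed, 2380 at an adjusted p under 0.1, 660 with GFP1 and GFP1_1 averaged and 558 to 2396 with 1 library left out. The cause was not tested. The sign turned for 3 genes with log2 fold changes near 0. *Dcc* was at -0.063 with edgeR, -0.052 with DESeq2 and -0.51 to 0.40 with 1 library left out. *Neo1* was at 0.026 with edgeR, 0.026 with DESeq2, 0.0014 with scaling to the total count and -0.19 to 0.10 with 1 library left out. *Unc5c* was at -0.11 with CRE2 and CRE2_2 averaged and -0.19 to 0.23 with 1 library left out. Scaling moved the median of all genes by 0.0014 (TMM) and 0.0064 (total count) on the log2 scale. *Tbl1xr1* passed with DESeq2 (adjusted p = 0.040) and without CRE3 (0.023), as higher. No paired analysis was possible because the groups share only 1 replicate number. Depth limits the 17 guidance genes under the filter, of which 14 had reads and none passed in the limma fit without a filter (3 had an unadjusted p under 0.05), the lowest adjusted p being 0.16 for *Ephb6* and *Epha7*. edgeR and DESeq2 were not run on these genes.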
